A study of Mus musculus with 24 samples.

Results

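Expression of 10 genes of the intermediate filament family was described in sorted sensory neurons: the neurofilament genes Nefl, Nefm and Nefh, α-internexin (Ina), peripherin (Prph), vimentin (Vim), nestin (Nes), and the keratins Krt8, Krt18 and Krt19. The members were selected by name, as 10 of the 47643 gene identifiers in the count files, and no measured value entered that rule. The family was nevertheless chosen with earlier genotype results of these data known, so its genotype differences are given here as a description. The libraries came from lumbar (L4) dorsal root ganglia (DRG) of mice that carried Nav1.8-Cre, a Cre recombinase driven by the gene of a sodium channel of nociceptors, and Rosa26-ZsGreen, a green fluorescent reporter. Control mice were Tsc2 flox/+ and Nav-Tsc2 mice were Tsc2 flox/null, so that control neurons kept 1 intact copy of Tsc2, an inhibitor of the growth kinase complex mTORC1, and Nav-Tsc2 neurons were meant to keep none. All mice were 8 to 9 weeks old, of mixed C57BL/6 and AJ background, and had a crushed sciatic nerve on the other side 3 d before collection. Each genotype had 4 mice, 2 male and 2 female, and each mouse gave 3 libraries of 100 GFP-positive cells. Nav1.8-Cre is active mainly in nociceptors but also in some myelinated sensory neurons, so a library pools several neuron types. In such pools, fewer cells of a type and less RNA per cell cannot be told apart.

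Intermediate filaments are ropelike polymers that give a cell mechanical strength. In large sensory neurons with myelinated axons, Nefl, Nefm and Nefh proteins form heteropolymers that set axon caliber, whereas small unmyelinated nociceptors are rich in peripherin, which is known to rise after axotomy. Vimentin is the filament protein of glia, fibroblasts and endothelium and also appears in injured axons, nestin marks neural progenitors, and Krt8, Krt18 and Krt19 build the filaments of simple epithelia. A keratin filament needs an acidic (type I) partner such as Krt18 or Krt19 and a basic (type II) partner such as Krt8.

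RefSeq promoter windows (build GRCm38.p6) were at hand for 6 of the 10 members, namely Ina, Krt18, Krt8, Nes, Prph and Vim. The windows of Prph and Vim are shown because these members were called between genotypes and because, among the 6, only these windows held a TATA box core (TATAAA). Each run covers the 250 bases before the RefSeq start of transcription, 5′ to 3′, at chr15:99054924-99055173 on the plus strand for Prph and chr2:13574061-13574310 on the plus strand for Vim. Capitals mark TATAAA, the GC box (GGGCGG) and the CCAAT box, each on either strand.
Prph: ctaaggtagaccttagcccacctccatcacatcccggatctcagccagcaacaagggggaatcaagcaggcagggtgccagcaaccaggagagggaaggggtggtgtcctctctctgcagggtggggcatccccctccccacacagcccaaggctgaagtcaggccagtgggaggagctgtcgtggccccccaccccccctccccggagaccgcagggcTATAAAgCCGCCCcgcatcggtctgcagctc
Vim: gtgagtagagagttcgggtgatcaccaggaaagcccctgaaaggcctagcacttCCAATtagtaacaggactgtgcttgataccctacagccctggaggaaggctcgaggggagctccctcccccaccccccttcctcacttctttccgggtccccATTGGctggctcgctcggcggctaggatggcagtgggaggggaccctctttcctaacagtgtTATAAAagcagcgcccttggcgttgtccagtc
The TATA box core began 31 bases before the start in Prph and 32 bases before it in Vim, and 12.4% of all 32851 promoters of the same length held it. Prph also had a GC box at 24 bases, a motif of 32.7% of promoters, and Vim had CCAAT boxes at 94 and 196 bases, a motif of 33.9% of promoters. None of the 6 windows matched an AP-1 site (TGANTCA, in 6.75% of promoters), a CRE core (TGACGTCA, in 1.55%), an E-box of the CLEAR element (CACGTG, in 6.02%) or a C/EBP-ATF site (TGATGNAA, in 3.45%). The RefSeq start of Vim lies inside the longer gene span of the GENCODE annotation used for positions below, so its window does too. A match describes letters in these windows, and it is not evidence of binding.

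Libraries held between 12210899 and 28641787 counts on genes in control and between 8339220 and 34228180 in Nav-Tsc2 mice. Nav-Tsc2 libraries held more genes with a count, 17891 to 20466 (median 19393.5), against 15925 to 18544 (median 17566) in control libraries. The part of this difference in genes that were near 0 in control was not tested. Values below are normalized CPM, that is, counts scaled to the size of the library after TMM correction, of the summed libraries of a mouse. Reads were amplified without molecular identifiers, so copies of 1 molecule count as separate reads. Counting intervals below treat reads as independent and leave out differences between mice, so they understate the uncertainty. Tsc2, the targeted gene, had 20.9 ± 5.18 CPM (SD, n = 4) in control and 8.87 ± 1.52 CPM (SD, n = 4) in Nav-Tsc2 mice, and its mice did not overlap (log2 fold change -1.24, SE 0.22, adjusted p = 0.00400 from edgeR). Library A of control mouse 3 stood apart from the 11 other control libraries. Its summed satellite glia markers came to 1495 CPM, against 421 to 975 CPM in the others. Its neuron-type markers stood apart too, with nonpeptidergic markers at 3318 CPM (others at most 2124), A-fiber markers at 527 CPM (others at least 823) and peptidergic markers at 6594 CPM (others at least 8505). Its Prph (1401 CPM) and Vim (199 CPM) were above the 1067 and 142 CPM of the highest other control library, and its Nefh (116 CPM) was below the 344 CPM of the lowest.

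Of the 8 members that passed the low-count filter, edgeR called 3 higher in Nav-Tsc2 mice (Krt19, Vim and Prph) and 0 lower. Krt19, with 2 to 6 counts in control mice, passed that filter only through its Nav-Tsc2 counts. A gene admitted in that way could hardly come out lower, which also holds for the counts of overlap below. To be called, a gene had to have an adjusted p under 0.05 and to differ by over 0.5 on the log2 scale, and over all 17178 genes tested 17.1% were called, 9.12% higher and 8.0% lower. DESeq2 called the same 3 higher and 0 lower, and it called 3677 of all 17178 genes. Ina had an unadjusted p of 0.0379 from edgeR and 0.0226 from DESeq2, without a call. Nefl and Nefh, with lower estimates, had unadjusted p of 0.0278 and 0.0373 from DESeq2, also without a call. The mice of the genotypes did not overlap for 4 of the 8 members, with Nav-Tsc2 higher in each (Ina, Prph, Vim and Krt19), a pattern that 14.6% of all genes tested had. No member was lower without overlap, which 12.3% of genes were. Krt8 and Krt18 failed the filter on low counts. Without library A of control mouse 3, an alternative chosen after seeing the data, the same 3 members were called.

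**Figure D1:**
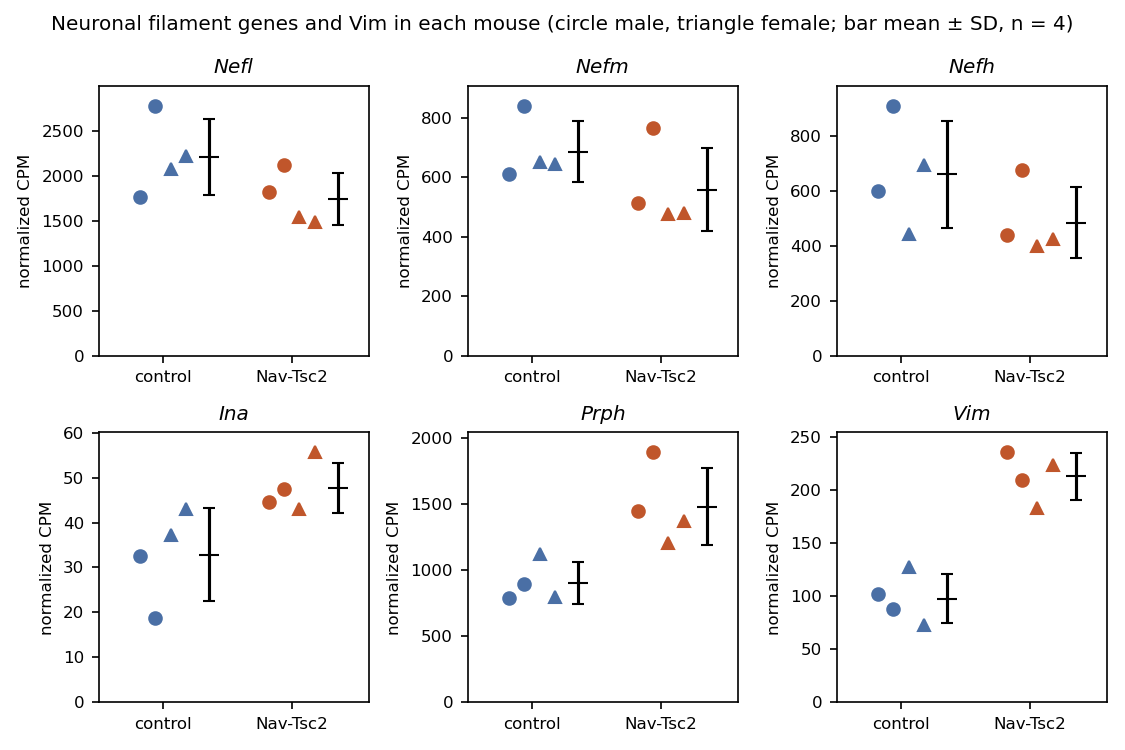
Normalized CPM (vertical axes, from 0) of Nefl, Nefm, Nefh, Ina, Prph and Vim in each of the 4 control and 4 Nav-Tsc2 mice, with circles for male and triangles for female mice and bars for the mean ± SD. The genotypes overlap for Nefl, Nefm and Nefh, and every Nav-Tsc2 mouse lies above every control mouse for Ina, Prph and Vim.

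The neurofilament triplet did not pass the test between genotypes. Nefl, the core subunit without which the others do not assemble (chromosome 14, 68083863 to 68089095, plus strand, GRCm38), had 1768, 2774, 2079 and 2216 CPM in control mice 1 to 4 and 1816, 2124, 1547 and 1488 CPM in Nav-Tsc2 mice 1 to 4. Nav-Tsc2 mice 3 and 4, both female, were below every control mouse, whereas the male Nav-Tsc2 mice lay within the control range. The log2 fold change was -0.34 (SE 0.15, adjusted p = 0.15 from edgeR). Nefm, the medium subunit (chromosome 14, 68082590 to 68124846, minus strand), had 611, 840, 651 and 646 CPM in control and 515, 766, 476 and 479 CPM in Nav-Tsc2 mice. Here 3 Nav-Tsc2 mice were below all control mice and Nav-Tsc2 mouse 2 was above 3 of them. Its log2 fold change was -0.30 (SE 0.17, adjusted p = 0.252 from edgeR). Nefh, the heavy subunit that carries most of the phosphorylated side arms and is the antigen of the myelinated-neuron marker NF200 (chromosome 11, 4938754 to 4948064, minus strand), had 602, 910, 444 and 694 CPM in control and 439, 677, 400 and 427 CPM in Nav-Tsc2 mice. Control mouse 3 and Nav-Tsc2 mouse 1 had nearly equal Nefh levels, and the groups overlapped. The log2 fold change was -0.45 (SE 0.23, adjusted p = 0.205 from edgeR).

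The estimates for the triplet were below 0 in all 17 other fits, but their size hung on single mice. Mouse 2 of each genotype had the highest triplet levels of its group. Without control mouse 2 the log2 fold change of Nefh came to -0.26 (adjusted p = 0.461 from edgeR), and without Nav-Tsc2 mouse 2 that of Nefm came to -0.49 (adjusted p = 0.0299 from edgeR), just inside the limit on the fold change.

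Markers of large neurons that are rich in neurofilament were read beside the triplet. Over all genes tested 8.0% were called lower and 9.12% higher. Of 19 tested A-fiber markers, 9 were called lower by edgeR, 0 higher and 10 not at all. Over the other fits 8 to 10 were called lower and 0 to 2 higher, with 1 higher by DESeq2 and without control mouse 2 and 2 in the fit of single libraries. Over the list the log2 fold changes had a median of -0.91, against 0.01 over all genes. The smallest adjusted p was that of Kcna1, a potassium channel of juxtaparanodes, with 34.2 ± 8.05 CPM (SD, n = 4) in control and 6.89 ± 3.11 CPM (SD, n = 4) in Nav-Tsc2 mice (log2 fold change -2.31, SE 0.33, adjusted p = 0.00125). Other markers of the list had estimates above 0, among them the calcium buffer Pvalb, at 1.1 and 5.5 CPM (log2 fold change 2.36, adjusted p = 0.0525 from edgeR), and Spp1, osteopontin, at 1.41 and 6.45 CPM (log2 fold change 2.19, adjusted p = 0.305 from edgeR). The summed level of the 20 A-fiber genes was 1084 to 2268 CPM in control and 666 to 927 CPM in Nav-Tsc2 mice, and none of them was at 0 in either group. Their part in the triplet's values was not tested.

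Ina, a neuronal filament protein that joins the triplet mostly in central neurons (chromosome 19, 47014698 to 47025327, plus strand), had 32.6, 18.8, 37.2 and 43.0 CPM in control and 44.6, 47.6, 43.1 and 55.6 CPM in Nav-Tsc2 mice. The groups touched without overlapping, since control mouse 4 and Nav-Tsc2 mouse 3 were almost level. The log2 fold change of 0.54 (SE 0.22, adjusted p = 0.123 from edgeR) was not called. A limma-voom fit of the 24 single libraries, in which mice were random effects, called it (log2 fold change 0.68, adjusted p = 0.0267). That fit used 1 consensus correlation, 0.0785, between libraries of a mouse for all genes, so technical libraries counted almost as separate mice. Without control mouse 2, the lowest, the estimate fell to 0.34 (adjusted p = 0.128 from edgeR). The adjusted p ranged from 0.0267 to 0.261 over the other fits.

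Prph rose in Nav-Tsc2 mice. The gene (chromosome 15, 99055174 to 99058978, plus strand) had 787, 895, 1126 and 798 CPM in control and 1449, 1892, 1210 and 1374 CPM in Nav-Tsc2 mice. Every Nav-Tsc2 mouse was above every control mouse, with control mouse 3 and Nav-Tsc2 mouse 3 closest. The 1.64-fold difference (log2 fold change 0.72, SE 0.16, adjusted p = 0.0111 from edgeR) was called in all 17 other fits, with adjusted p from 5.30e-05 to 0.0316, but not at a stricter adjusted p under 0.01. The lowest of these came from the limma-voom fit of single libraries. Over libraries the groups did overlap, from 601 to 1401 CPM in control and from 1039 to 1987 CPM in Nav-Tsc2 libraries. Summed markers of nonpeptidergic nociceptors, small neurons that contain peripherin, ranged from 587 to 2086 CPM over control and from 2001 to 2182 CPM over Nav-Tsc2 mice, with none of the 11 genes at 0. Of the 11, 0 were called by edgeR, and between 0 and 5 were called higher over the other fits. Summed peptidergic markers ran the other way, from 9821 to 20539 CPM in control and from 4384 to 7330 CPM in Nav-Tsc2 mice. Of these 10 genes, 5 were called lower and 0 higher, against 8.0% and 9.12% of all genes. Smr2 had the smallest adjusted p of the peptidergic markers, with 20.9 ± 10.7 CPM (SD, n = 4) in control and 0.0853 ± 0.0869 CPM (SD, n = 4) in Nav-Tsc2 mice (log2 fold change -7.91, SE 0.71, adjusted p = 1.25e-04 from edgeR). It passed the low-count filter only through control counts, so its direction was close to fixed in advance. The part of these neuron types in the Prph difference was not tested.

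Vim rose in Nav-Tsc2 mice. The gene (chromosome 2, 13573927 to 13582826, plus strand) had 103, 87.9, 128 and 73.1 CPM in control and 236, 209, 183 and 224 CPM in Nav-Tsc2 mice. The lowest Nav-Tsc2 mouse stood well above the highest control mouse. The difference was 2.18-fold (log2 fold change 1.12, SE 0.16, adjusted p = 0.00146 from edgeR) and was called in all 17 other fits, with log2 fold changes from 1.00 to 1.27. Without library A of control mouse 3 it was 1.20 (adjusted p = 3.00e-04 from edgeR). Because Vim is also a gene of non-neuronal cells, their markers were read beside it. Of all genes tested 17.1% were called. Summed satellite glia markers overlapped between genotypes, at 626 to 950 CPM in control and 662 to 858 CPM in Nav-Tsc2 mice, and 0 of 8 were called by edgeR or in any other fit. Schwann cell markers came to 1330 to 1649 CPM in control and 1491 to 1778 CPM in Nav-Tsc2 mice, with 0 of 7 called by edgeR and 0 to 1 lower and 0 to 2 higher over the other fits. Fibroblast markers came to 73.1 to 237 CPM and 121 to 196 CPM, with 0 of 7 called by edgeR and 0 to 1 higher over the other fits. No gene of these 3 lists was at 0 in either group.

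Markers of vessels and macrophages were low, but some were called higher in Nav-Tsc2 mice, as Vim was. Of all genes tested 9.12% were called higher. Among the genes named below, Flt1, Ly6c1, Acta2 and Cx3cr1 were near 0 in control and passed the low-count filter only through Nav-Tsc2 counts. Their direction was therefore close to fixed in advance, and their calls are not counted as support. Of 5 tested endothelial markers, 3 were called higher, led by Flt1, a VEGF receptor, at 0.0338 ± 0.0295 CPM (SD, n = 4) in control and 8.56 ± 4.01 CPM (SD, n = 4) in Nav-Tsc2 mice (log2 fold change 7.94, SE 0.73, adjusted p = 1.42e-04 from edgeR). The others called were Ly6c1, at 0.0182 and 2.63 CPM, and Kdr, another VEGF receptor, at 0.358 and 1.76 CPM. Of the junction genes of endothelium, Cdh5 and Cldn5 stayed at or under 0.261 CPM and Pecam1 at or under 1.59 CPM in every mouse. Egfl7 was the largest part of the summed list (16.5 and 13.8 CPM), which came to 13.7 to 21.6 CPM in control and 19.8 to 35.4 CPM in Nav-Tsc2 mice. Of 4 tested mural cell markers, 2 were called higher, led by Acta2, smooth muscle actin, at 0.131 ± 0.108 CPM (SD, n = 4) in control and 7.25 ± 0.862 CPM (SD, n = 4) in Nav-Tsc2 mice (log2 fold change 5.76, SE 0.63, adjusted p = 3.53e-04 from edgeR). That list summed to 5.59 to 46.3 CPM in control and 20.0 to 148 CPM in Nav-Tsc2 mice, mostly Rgs5, and Kcnj8 was at 0 in control. Of 5 tested macrophage markers, 1 was called higher, Cx3cr1, a chemokine receptor, at 0.0328 ± 0.0197 CPM (SD, n = 4) and 5.71 ± 3.01 CPM (SD, n = 4) (log2 fold change 7.36, SE 0.63, adjusted p = 9.98e-05 from edgeR), and the list summed to 1.95 to 6.33 CPM in control and 7.76 to 19.7 CPM in Nav-Tsc2 mice. Over the other fits 1 to 3 endothelial, 1 to 2 mural cell and 1 to 2 macrophage markers were called higher and 0 lower. Kdr (adjusted p = 0.0469 from edgeR) and the mural marker Pdgfrb (adjusted p = 0.0494 from edgeR) were close to the limit. The part of vessel cells and macrophages in the Vim difference was not tested.

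Nes (chromosome 3, 87971078 to 87980451, plus strand) was close to absent. It had 0.542, 0, 0.561 and 0 CPM in control mice and 0.206, 0.195, 0.0653 and 0.135 CPM in Nav-Tsc2 mice. The control level came from mice 1 and 3, where 1 library each held most of the counts, and 8 of 12 control and 5 of 12 Nav-Tsc2 libraries had no Nes count. The log2 fold change of -0.88 (SE 1.3, adjusted p = 0.694 from edgeR) was not called in any fit, and its sign turned to 0.58 with the replicate number as a block.

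Krt19 had the largest log2 fold change of the 8 tested members. It had 0.0339, 0.0568, 0.109 and 0.10 CPM in control mice, from 2, 3, 6 and 5 counts, and 13.5, 10.0, 42.4 and 30.1 CPM in Nav-Tsc2 mice, from 655, 568, 2596 and 1781 counts. The log2 fold change was 8.30 (SE 0.64, adjusted p = 5.93e-05 from edgeR), and all 17 other fits called it. From the pooled 5600 and 16 counts the ratio of the genotypes was 337, with an exact 95% counting interval of 207 to 590. Over single libraries the control range was 0 to 0.15 CPM, with 3 of 12 libraries at 0, and the Nav-Tsc2 range was 3.91 to 57.7 CPM, with none at 0. Krt19 was the only one of the 8 tested members whose 24 libraries did not overlap, as was true of 2.39% of all genes tested. It had passed the low-count filter only through its Nav-Tsc2 counts, so the direction was close to fixed in advance. Within a mouse the libraries of 100 cells differed widely, from 3.91 to 42.2 CPM in Nav-Tsc2 mouse 4.

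**Figure D2:**
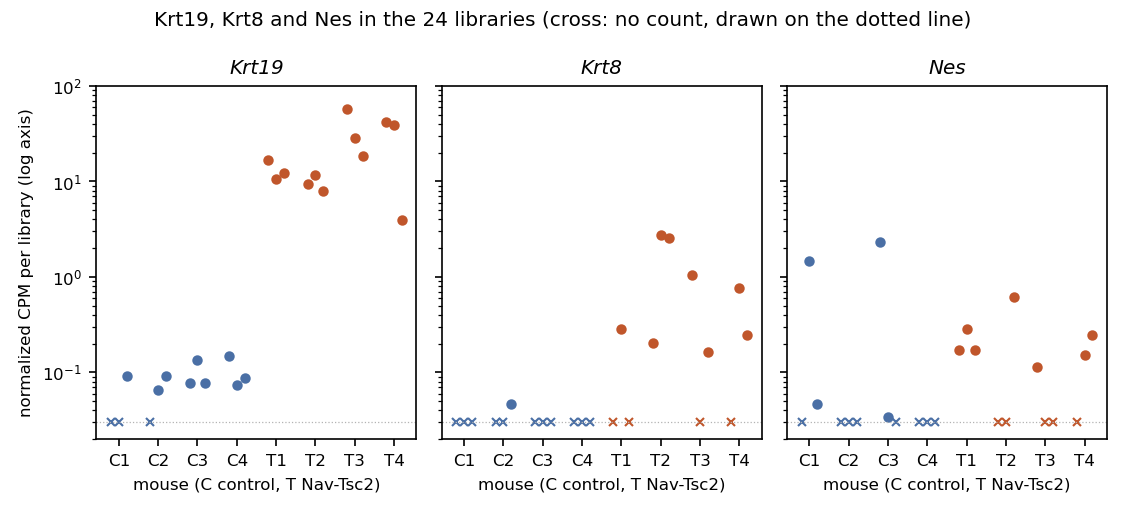
Normalized CPM per library (log axis) of Krt19, Krt8 and Nes in the 3 libraries of each control (C) and Nav-Tsc2 (T) mouse, with crosses on the dotted line for libraries without a count. All 12 Nav-Tsc2 libraries lie above all 12 control libraries for Krt19, whereas Krt8 has no count in 11 control and 4 Nav-Tsc2 libraries.

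The other keratin members were far below Krt19. Krt8, a type II keratin and so a possible partner of Krt19 (chromosome 15, 101996698 to 102004482, minus strand), had 0, 1, 0 and 0 counts in control mice and 4, 115, 40 and 24 counts in Nav-Tsc2 mice, or 0.0823, 2.03, 0.653 and 0.406 CPM. All Nav-Tsc2 mice were above all control mice, and Nav-Tsc2 mouse 2 held most of the counts. From 183 and 1 pooled counts the ratio was 176, with a counting interval of 31.2 to 6992. The gene entered 6 other fits, among them the edgeR fit with no low-count filter (log2 fold change 6.85, SE 1.41, adjusted p = 0.00800), and all 6 called it. With 1 control count, Krt8 could pass the filter in the remaining fits only through its Nav-Tsc2 counts. Those calls were therefore close to fixed in advance and are not counted as support. Of its 50-base windows, the read length, 29.7% also occur in other transcripts, chiefly in the pseudogene Krt8-ps, and reads from them would not be counted for Krt8. Krt18, a type I keratin like Krt19 and the usual partner of Krt8 (chromosome 15, 102028180 to 102032027, plus strand), had 1 read in all 24 libraries, in control mouse 1, and only 0.720% of its windows are shared. Of the 7 simple epithelium markers, Cdh1, an adhesion gene, averaged 82.5 CPM in control and 120 CPM in Nav-Tsc2 mice without a call. The others were near 0, since Epcam, Krt7, Upk3b, Cldn4 and Cldn7 stayed at or under 1.01 CPM in every mouse and Msln was at 0 in every mouse.

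Krt19 (chromosome 11, 100140810 to 100148665, minus strand, GRCm38) lies in the type I keratin cluster. Of the 14 other keratin genes in the surrounding window, 2 had counts in every Nav-Tsc2 mouse and in no control mouse, Krt36 and Krt16, and 3 had no count in any mouse. None exceeded 1.67 CPM in any mouse. Eif1, a translation initiation gene just outside the cluster, had 200 to 232 CPM in control and 197 to 266 CPM in Nav-Tsc2 mice. Krt16 and Eif1 were singled out after their values were seen. Over the whole family other than the 3 members, 10 of 51 keratin genes were tested. Of these, edgeR called 2 higher, Krt36 and Krt24, and 0 lower, against 9.12% and 8.0% of all genes. Krt36 had the smaller adjusted p (0.00324 from edgeR), at 0 CPM in all control libraries and 0.355 to 0.849 CPM in Nav-Tsc2 mice. Krt19 made up 0.0497 to 0.160% of the summed CPM of all 54 keratin genes in control mice and 13.4 to 35.5% in Nav-Tsc2 mice. Keratins were typed by gene number only, which left Krt42, Krt87, Krt88, Krt90 and Krt222 without a type. The 23 typed as type II together gave 0.241 to 4.22 CPM in control and 3.44 to 6.28 CPM in Nav-Tsc2 mice. Their sum was below the Krt19 level alone in each Nav-Tsc2 mouse.

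**Figure D3:**
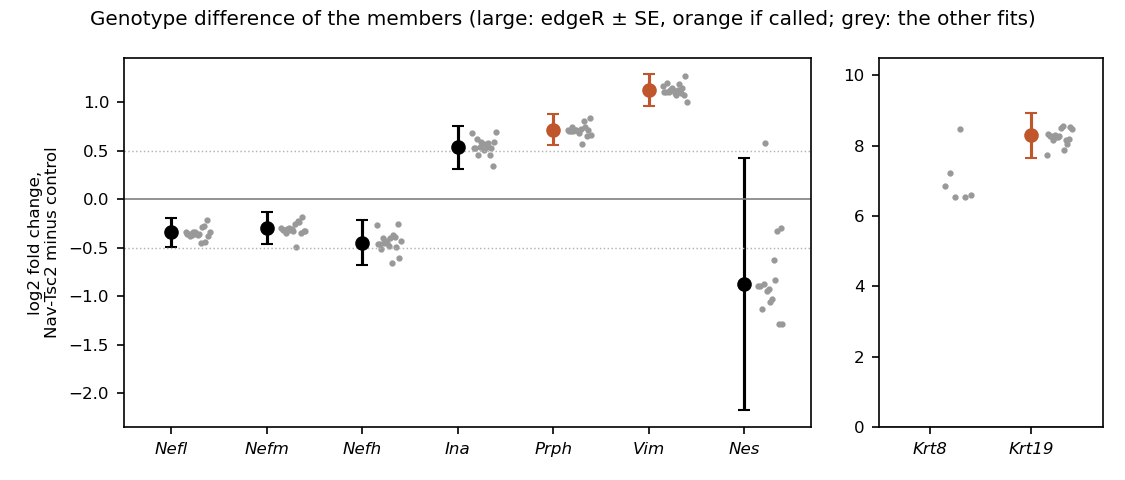
Log2 fold changes (Nav-Tsc2 minus control, vertical axes) of the members, with large points and bars for the edgeR estimate ± SE, orange where called, and grey points for the other fits. Krt8 has only other fits, Krt18 is not drawn, and the grey points of Nes lie on both sides of 0.

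Per kb of merged exon of all annotated transcripts, the order of the levels in control mice was Nefl, Prph, Nefh, Nefm, Vim and Ina. The order depends on that choice of length. Merged exons came to 5.782 kb for Nefm and 4.743 kb for Vim, whereas their longest coding transcripts have 3680 and 2193 bases. Nefm and Vim would stand higher with the shorter lengths, for which the order was not read. Nefl averaged 654 ± 124 CPM per kb (SD, n = 4), Prph 451 ± 78.8, Nefh 166 ± 48.8, Nefm 119 ± 17.9, Vim 20.6 ± 4.92 and Ina 10.1 ± 3.18. The ranges of Nefl and Prph overlapped over the control mice, as did those of Nefh and Nefm. In Nav-Tsc2 mice Prph, at 741 ± 146 CPM per kb (SD, n = 4), stood above Nefl, at 516 ± 86, again with overlap. Krt19 reached 12.9 ± 8.13 CPM per kb there and overlapped with Ina at 14.7 ± 1.72. Nefl and Nefm lie beside each other on chromosome 14 on opposite strands, and the annotated exons of 1 transcript of Nefm run across Nefl, so that 32.8% of Nefl exon bases and 19.2% of Nefm exon bases are shared. With only unshared bases, an alternative chosen after seeing the data, Nefl came to 972 ± 185 CPM per kb (SD, n = 4) in control and 768 ± 128 in Nav-Tsc2 mice, which put it back above Prph there.

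Within the triplet the proportions were similar in both genotypes, and Prph stood higher against it in Nav-Tsc2 mice. Nefl made up 69.7% ± 2.63 (SD, n = 4) of the triplet per kb in control and 70.5% ± 2.33 in Nav-Tsc2 mice. Nefm made up 12.8% ± 0.857 and 13.1% ± 0.895, and Nefh 17.5% ± 2.88 and 16.4% ± 1.45. All of these differences were smaller than the SD between mice. The percentages themselves depend on the merged exon lengths, and that of Nefm would be higher with its longest coding transcript. The ratio of Prph to the summed triplet per kb was 0.375 to 0.672 in control and 0.945 to 1.09 in Nav-Tsc2 mice. Those ranges did not overlap with unshared bases either, at 0.275 to 0.483 and 0.685 to 0.795. The ratio combines values of the genotype comparison already given, so it was not tested again.

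Sex, which played no part in choosing the members, was tested across all genes with genotype in the model. By edgeR, 0 of 8 members were called between females and males, while 0.0291% of all genes were, and 1 member (Krt19) had an unadjusted p under 0.05, as had 6.66% of all genes. Krt19 averaged 11.8 CPM over the 2 male and 36.3 CPM over the 2 female Nav-Tsc2 mice, and its log2 difference of 1.55 (SE 0.24, unadjusted p = 1.37e-04, adjusted p = 0.262 from edgeR) failed the correction. DESeq2 called it (log2 difference 1.57, adjusted p = 0.00108), as it did 0.629% of all genes. Each female Nav-Tsc2 mouse was above each male one, and the female control mice (5 and 6 counts) were also above the male ones (2 and 3 counts). Nefm and Nefh pointed the other way, with female minus male log2 differences of -0.29 (adjusted p = 0.760 from edgeR) and -0.42 (adjusted p = 0.744 from edgeR). For the interaction of genotype and sex, edgeR called 0 of 8 members against 0.00582% of all genes, with 0 members at an unadjusted p under 0.05 against 9.22% of all genes. DESeq2 also called 0, and Prph had an unadjusted p of 0.0383 from DESeq2. The Prph estimate was -0.56 (SE 0.27, adjusted p = 0.584 from edgeR). Its Nav-Tsc2 mean was 1670 CPM over 2 males and 1292 CPM over 2 females, and the control means were 841 and 962 CPM.

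How the members varied together was read from the 3 libraries of each mouse, as deviations of log2(CPM + 0.5) from the mean of that mouse, so that genotype, sex and mouse drop out. The 24 points share mice by threes and are described without a test. Nefl and Nefm deviated together (Pearson's r = 0.90, Spearman's rho = 0.85), and each did so with Nefh more loosely (r = 0.56 and 0.69). Against the triplet stood Prph, at r = -0.56 with Nefl, -0.54 with Nefm and -0.54 with Nefh, whereas Vim had -0.66 with Nefl, -0.55 with Nefm and -0.30 with Nefh. Ina deviated with Prph (r = 0.57) and against Nefh (r = -0.62). Without library A of control mouse 3, r was 0.89 for Nefl and Nefm, 0.49 for Nefl and Nefh, -0.50 for Nefl and Prph, -0.42 for Nefh and Prph, -0.61 for Nefl and Vim and 0.01 for Nefh and Vim.

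Some of these relations did not hold within both genotypes. In the 12 control libraries r was 0.96 for Nefl and Nefm, 0.82 for Nefl and Nefh, -0.82 for Nefh and Prph and 0.91 for Ina and Prph. In the 12 Nav-Tsc2 libraries Nefl and Nefm stayed positive at 0.65, while Nefl and Nefh came to -0.75, Nefh and Prph to 0.56 and Ina and Prph to -0.61. Library B of Nav-Tsc2 mouse 3, the shallowest at 8339220 counts, had the lowest Nefl (1063 CPM) and Nefm (323 CPM) of these libraries. Its Nefh, at 658 CPM, was above the 355 and 362 CPM of libraries A and C of that mouse. The Nav-Tsc2 values of r were not read without it, so the signs with Nefh may rest on that library. Krt19 could be read only in Nav-Tsc2 libraries, where r was 0.73 with Ina (rho = 0.39) and 0.47 with Vim (rho = 0.48). Vim against Nefl was -0.65 in control and -0.72 in Nav-Tsc2 libraries, and Vim with Nefh was -0.49 and 0.55. The difference between the genotypes in these values was not tested. Libraries also varied less in Nav-Tsc2 mice. Within mice the SD of log2 values was 0.91 for Nefh in control and 0.34 in Nav-Tsc2 libraries, and 0.43 and 0.22 for Nefl. A larger spread in control was the rule over all 8453 genes of at least 10 CPM (82.9% of them), and 11.4% of these had a higher ratio of the spreads than Nefh.

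**Figure D4:**
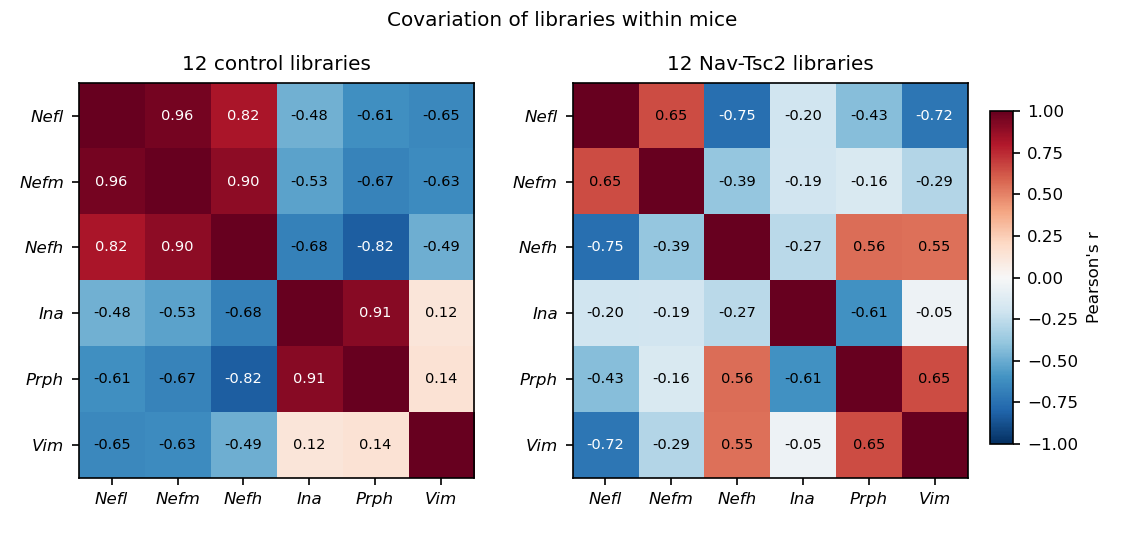
Pearson's r (color scale from -1 to 1, values printed) between within-mouse deviations of 6 members over 12 control (left) and 12 Nav-Tsc2 (right) libraries. In control libraries Nefl, Nefm and Nefh form a positive block opposed to Prph, and in Nav-Tsc2 libraries Nefh has negative values with Nefl and Nefm. The Nav-Tsc2 values include library B of mouse 3, which had low Nefl and Nefm and high Nefh for that mouse.

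Among 8452 genes compared, those most like each member within mice were named by a fixed rule. For Nefl they were Sorl1 (r = 0.92), a sorting receptor, Nefm (0.90) and Lhfpl4 (0.89). Nefm was most like Nefl (0.90), Sorl1 (0.87) and Fam126b (0.84). Nefh was most like Nfasc (0.92), an adhesion molecule of nodes of Ranvier, Txndc17 (0.90) and Fabp3 (0.89), a fatty acid carrier. Prph was most like Ypel3 (0.88), Ywhah (0.86), a 14-3-3 protein, and Stk11 (0.81), the kinase LKB1. Summed A-fiber markers deviated with Nefl (r = 0.74), Nefm (0.80) and Nefh (0.59) and against Prph (-0.56), and summed satellite glia markers deviated with Prph (0.75) and Vim (0.58) and against Nefl (-0.63). The marker r and the genes most alike are given over all 24 libraries only. These include library A of control mouse 3, the highest control library for satellite glia markers, Prph and Vim. For the other non-neuronal lists, r with Vim was 0.06 for endothelial, -0.26 for mural, -0.15 for macrophage, -0.23 for fibroblast and -0.45 for Schwann cell markers. Nefh deviated more closely with summed endothelial markers (r = 0.76, rho = 0.79) than with A-fiber markers, and Nefl also with Schwann cell markers (r = 0.59). Egfl7 was the largest part of the endothelial sum, while Pecam1, Cdh5 and Cldn5 were low, so the endothelial r rests on few genes.

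The rest of the intermediate filament system was read from lists, beside the 9.12% of all genes called higher and the 8.0% called lower. Of 9 tested filament genes outside the keratins and the members, 1 was called higher and 0 lower, and their median log2 fold change was 0.30. It was Iffo2, a gene with a filament domain, at 0.944 ± 0.328 CPM (SD, n = 4) in control and 3.65 ± 0.655 CPM (SD, n = 4) in Nav-Tsc2 mice (log2 fold change 1.95, SE 0.39, adjusted p = 0.00732 from edgeR). Over the other fits 1 to 2 were called higher and 0 to 1 lower. Gfap, the filament protein of glia, was at 0.367 and 5.20 CPM (log2 fold change 3.81, SE 1.43, adjusted p = 0.0904 from edgeR), and the lamin gene Lmna was at 196 and 219 CPM, neither of them called. Among 8 tested linkers, which tie filaments to junctions and other structures, 2 were called higher and 1 lower. Dsp, desmoplakin, which anchors keratins to desmosomes, had 0 to 0.0402 CPM in control and 1.07 to 24.8 CPM in Nav-Tsc2 mice (log2 fold change 8.80, SE 1.29, adjusted p = 0.00149 from edgeR). It passed the low-count filter only through Nav-Tsc2 counts, so its direction was close to fixed in advance. The other called higher was Pkp2, a desmosome plakophilin, at 2.56 and 12 CPM. Jup, plakoglobin, the partner of Dsp in desmosomes, was the one called lower, at 352 ± 74.1 CPM (SD, n = 4) in control and 190 ± 37.5 CPM (SD, n = 4) in Nav-Tsc2 mice (log2 fold change -0.89, SE 0.18, adjusted p = 0.00729 from edgeR).

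Genes that handle neurofilament proteins were read against the 17.1% of all genes that were called (9.12% higher and 8.0% lower). Of 10 motor genes, 1 was lower and 1 higher, Dync1i1, a dynein intermediate chain (405 and 278 CPM, log2 fold change -0.54, SE 0.10, adjusted p = 0.00374 from edgeR), and Klc1, a kinesin light chain (218 and 337 CPM, log2 fold change 0.63, SE 0.16, adjusted p = 0.0237 from edgeR). Dync1i1 kept its call in 16 of 17 other fits and lost it without Nav-Tsc2 mouse 4 (log2 fold change -0.49). Klc1 kept its call in 13 of 17 other fits and lost it without control mouse 2 or 4, without Nav-Tsc2 mouse 2 (log2 fold change 0.43) and with the replicate block. The motor Kif5a, named here after its values were seen, was at 735 and 717 CPM and was not called. Of 20 kinases and other modifying enzymes, 4 were lower and 1 higher. Mapk10 (JNK3), a neuronal kinase that phosphorylates neurofilament tails, fell from 331 ± 27.2 CPM (SD, n = 4) in control to 160 ± 13.5 CPM (SD, n = 4) in Nav-Tsc2 mice (log2 fold change -1.05, SE 0.09, adjusted p = 1.14e-04 from edgeR). The phosphatase subunit Ppp2ca rose from 138 ± 11.5 to 241 ± 18.4 CPM (SD, n = 4 each; log2 fold change 0.80, SE 0.09, adjusted p = 4.06e-04 from edgeR). Cdk5, the best known neurofilament kinase, was at 162 and 194 CPM (adjusted p = 0.109 from edgeR). Of 14 genes for folding, degradation or mRNA binding, 3 were higher and 0 lower. Among them Hspb1, a small heat shock protein that rises in injured neurons, went from 15.0 to 43.6 CPM (adjusted p = 7.19e-04 from edgeR).

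Genes known to rise in sensory neurons after nerve injury, as Prph does, were read beside the members. Of 12, edgeR called 10 higher and 0 lower (median log2 fold change 2.59), and 10 to 12 were higher in the other fits. Over all genes tested 9.12% were called higher and 8.0% lower. Sprr1a, an axon outgrowth gene, had 4.29 ± 0.776 CPM (SD, n = 4) in control and 223 ± 31.1 CPM (SD, n = 4) in Nav-Tsc2 mice (log2 fold change 5.70, SE 0.18). Of 11 neuron and nociceptor identity genes, 2 were lower and 0 higher, and Snap25, a synaptic SNARE, fell from 4402 ± 645 CPM (SD, n = 4) to 2051 ± 205 CPM (SD, n = 4; log2 fold change -1.10, SE 0.12, adjusted p = 3.32e-04 from edgeR). Their summed level was 15741 to 19050 CPM in control and 16376 to 18142 CPM in Nav-Tsc2 mice.

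**Figure D5:**
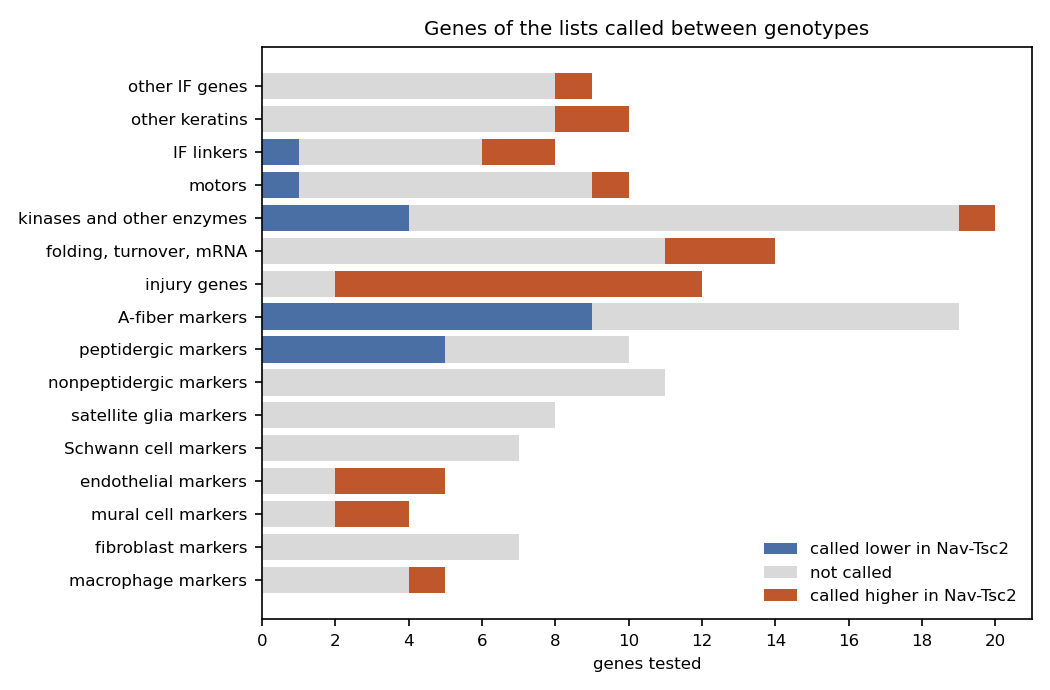
Number of genes tested (horizontal axis) in each list, split into those called lower (blue), not called (grey) and called higher (orange) in Nav-Tsc2 mice. The kinase list has 4 lower and 1 higher, the A-fiber list 9 lower and 0 higher, and the injury list 10 higher and 0 lower.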

How the data were processed

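RNA-seq was analysed from 24 libraries, 3 for each of 4 control and 4 Nav-Tsc2 mice. The authors prepared them with a SMARTer Ultra Low kit without molecular identifiers, aligned reads to mm10 with STAR and counted them with HTSeq (versions are not given in the sources used here). They deposited raw counts per gene and library. A deposited table of their DESeq2 results and normalized values was not used. Gene identifiers were matched to symbols of the annotation, which named 47224 of 47643, and reads not assigned to a gene (47.6 to 55.9% of a library) were left out. Gene models came from GENCODE M21 (GRCm38).

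The 3 libraries of a mouse were summed. The genotypes were compared with the edgeR 4.0.16 quasi-likelihood test (limma 3.58.1, R 4.3.3) after its low-count filter and TMM scaling, with Benjamini-Hochberg adjustment over 17178 genes. A gene was called at an adjusted p under 0.05 with a log2 fold change above 0.5 in size. Sex and its interaction with genotype were tested in the same way. Alternative fits used DESeq2 1.42.0, edgeR with the size factors of DESeq2 or with upper-quartile scaling, all genes with a count, the replicate number as a block, a term for sex, equal weights for libraries, single libraries in limma-voom with mice as random effects, each mouse left out in turn, and other thresholds. The edgeR script was tested on simulated data. Replicates are separate mice, and libraries of a mouse are technical.

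The members and lists were chosen with earlier results of these data known. Named were all members, for each list and direction the called gene of smallest adjusted p, the 3 genes most like Nefl, Nefm, Nefh and Prph within mice, and Tsc2. Other genes named (Pkp2, Hspb1, Lmna, Gfap, Cdk5, Kif5a, Krt16, Krt24, Eif1 and further marker genes) were chosen after their values were seen. Results for 1 gene named by this rule are not reported here.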

Additional observations from a re-analysis of the deposited data

Results flagged for a closer look

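A mouse was singled out where its gap to the nearest mouse of its group, divided by the range of the group, exceeded Dixon's 95% critical value for 4 samples. Of 19 groups tested, 4 did so. Chance flags about 1 in 20 groups of continuous values, a rate that does not apply to the keratins below, where 3 mice at 0 and 1 mouse with 1 read pass by construction. Nefm in Nav-Tsc2 mouse 2 was 766 CPM, with the 3 other mice at 476 to 515 CPM. Nefh in the same mouse was 677 CPM, with the others at 400 to 439 CPM. Krt8 in control mouse 2 was 0.0189 CPM, which is 1 read, with the others at 0. Krt18 in control mouse 1 was 0.0169 CPM, also 1 read, with the others at 0.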

How the results depend on the processing

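Krt19, Vim and Prph were called in all 17 other fits, and the counts of members called ranged from 3 to 4 when a mouse was left out, the added member being Krt8. Krt8 entered those fits only through its Nav-Tsc2 counts, and Krt19 likewise passed the filter only through Nav-Tsc2 mice. The count of members called was 2 at an adjusted p under 0.01, where Prph was lost. Over all genes, 2941 calls became 1599 at an adjusted p under 0.01, and 2145 to 3502 without 1 mouse (fewest without Nav-Tsc2 mouse 1, most without control mouse 3). The genes called in the lists numbered 48, and 45 to 58 without 1 mouse. The sex difference was called for 0 members by edgeR and 1 by DESeq2, and leaving out a mouse gave 0 members for sex and 0 for the interaction. The fit without library A of control mouse 3, unshared exon length and the correlations within each genotype were chosen after seeing the data. The causes of these shifts were not tested.

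With the replicate number as a block, 2445 genes were called and the same 3 members, and the estimate for Nes turned to 0.58 (adjusted p = 0.872). Klc1 lost its call (log2 fold change 0.60, adjusted p = 0.0660), Nefh passed the adjusted p (0.0381) but not the limit on the fold change, and 49 list genes were called. Deviations of same-numbered mice from their group means correlated at 0.101, 0.121, 0.0341 and 0.124 over 8445 genes, and not every mouse correlated best with its own number, so the numbers were not read as pairs.

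Some estimates changed sign when a mouse was left out, none of them called. The female minus male log2 difference ran from -0.262 to 0.0355 for Prph, from -0.2386 to 0.0974 for Vim and from -2.10 to 0.51 for Nes. The interaction ran from -0.52 to 0.0622 for Nefm, from -0.35 to 0.34 for Nefh, from -0.55 to 0.27 for Vim and from -7.94 to 5.95 for Nes. Depth limits Krt8, Krt18 and Nes, whose totals over 24 libraries were 184, 1 and 96 counts.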
